A study of Mus musculus with 8 samples.

Results

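The 10 genes described here belong to transforming growth factor beta (TGF-beta) and bone morphogenetic protein (BMP) signalling, and they were chosen by symbol: Tgfb1, Tgfbr1, Tgfbr2, Tgfbr3, Bambi, Smad6, Smad7, Id1, Id2 and Id3. All 10 were among the 24421 gene symbols of the deposited count table, and all 10 passed the filter on low counts that left 15917 tested genes. RNA came from LT-HSCs, the long-term stem cells of the blood, which were sorted from mouse bone marrow by surface markers and divided by a GFP reporter of Vwf, the gene of von Willebrand factor, into Vwf+ and Vwf- cells. The design text calls the Vwf+ cells megakaryocyte-biased. The 4 groups were Vwf+ cells of Dnmt3a+/- mice, Vwf+ cells of wild-type (WT) mice, Vwf- cells of Dnmt3a+/- mice and Vwf- cells of WT mice, with 2 libraries in each. Mice were 10 to 12 months old, each library pooled 3 to 4 of them, and in every group replicate 1 was male and replicate 2 female. Dnmt3a encodes a DNA methyltransferase; strain, the structure of the mutant allele and any treatment are not given in the labels. The series asks how loss of 1 Dnmt3a allele acts on megakaryocyte-biased stem cells.

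TGF-beta is secreted in a latent form and, once released, binds the type II receptor Tgfbr2, which recruits and phosphorylates the type I receptor Tgfbr1. The activated receptor phosphorylates the transcription factors Smad2 and Smad3, whereas BMP receptors act on Smad1, Smad5 and Smad9, and both branches share Smad4. Tgfbr3, or betaglycan, is a co-receptor that presents ligand, Bambi is a pseudoreceptor that lacks a kinase, and Smad6 and Smad7 are inhibitory SMADs that are themselves induced by the pathway. Id1, Id2 and Id3 are helix-loop-helix proteins without a DNA-binding region, known as BMP targets, that hold back E proteins such as Tcf3. In bone marrow, TGF-beta is known for keeping haematopoietic stem cells out of the cell cycle.

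Total counts were between 21809278 and 39402418 per library. The sorted fractions differed in Vwf itself, at 1034 to 1409 CPM (a gene's counts relative to the library total, scaled between libraries by edgeR's TMM factors) in Vwf+ cells and 98.9 to 116 CPM in Vwf- cells. All 8 LT-HSC markers on the list used here were detected, with a summed level of 2110 to 2722 CPM. Dnmt3a had 175 to 361 CPM and was not detectably lower in Dnmt3a+/- cells (log2 difference 0.38 ± 0.16 SE, edgeR adjusted p = 0.998), so its level gives no check of that label. Xist, from the X chromosome, had 1231 to 1782 CPM in female pools and 2.02 to 4.94 CPM in male pools. The nuclear RNA Malat1 took 0.446% to 0.585% of counts in female pools and 0.974% to 1.97% in male pools. All p-values measure the spread between these pools. The pools of a group differ in sex and replicate number. In tests that leave replicate number out, this difference is part of the spread. The labels do not say whether the Vwf+ and Vwf- libraries of 1 genotype and sex came from the same mice.

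Sequences at the RefSeq starts of Smad6, Id2 and Tgfb1 are given as examples of an inhibitory SMAD, a target and the ligand. Of these, Tgfb1 passed a test below (female against male pools). Smad6 and Id2 did not pass in the filtered edgeR fit of all 8 libraries without a block. Promoter windows of RefSeq on GRCm38.p6 were matched by symbol for 6 of the 10 genes: Tgfb1, Tgfbr1, Tgfbr2, Smad6, Id2 and Id3. The Smad6 window is chr9:64022060-64022309 on the minus strand and the Tgfb1 window chr7:25686752-25687001 on the plus strand, each the 250 bases before the RefSeq start. The Id2 stretch is chr12:25096254-25096342 on the minus strand, the 89 bases of its window outside annotated exons; it lies within the GENCODE span of Id2, between exons, and not upstream of the gene. Each runs 5′ to 3′, and capitals mark the SMAD-binding letters GGCGCC, the GC-rich element of BMP target genes.
Smad6: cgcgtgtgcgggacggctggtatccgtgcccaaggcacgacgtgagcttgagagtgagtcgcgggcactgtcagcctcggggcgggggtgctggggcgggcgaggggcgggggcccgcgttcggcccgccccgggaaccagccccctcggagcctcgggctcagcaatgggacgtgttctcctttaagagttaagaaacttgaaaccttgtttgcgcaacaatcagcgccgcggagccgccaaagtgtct
Id2: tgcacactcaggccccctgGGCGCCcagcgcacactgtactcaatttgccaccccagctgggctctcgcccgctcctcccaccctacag
Tgfb1: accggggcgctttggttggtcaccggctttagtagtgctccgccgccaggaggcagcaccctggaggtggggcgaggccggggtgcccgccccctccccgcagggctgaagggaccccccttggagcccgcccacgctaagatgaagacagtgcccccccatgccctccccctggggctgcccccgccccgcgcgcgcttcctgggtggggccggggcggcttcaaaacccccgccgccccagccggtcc

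The element GGCGCC, searched on both strands, was in the Id2 stretch once and in neither of the Smad6 and Tgfb1 windows. It was in 2.73% of all 32851 RefSeq windows at 89 bases and in 9.59% at 250 bases. The SMAD-box letters CAGAC, searched on both strands, were in none of the 3 stretches, against 17.7% of all windows at 89 bases and 42.2% at 250 bases. The E-box CANNTG, to which E proteins bind, was in the Id2 stretch once, against 33% of all windows at that length, and in neither of the others, against 66.2% at 250 bases. The motifs do not overlap each other in the Id2 stretch. G and C made up 66.8% of the Smad6 window, 67.4% of the Id2 stretch and 75.2% of the Tgfb1 window, against a median of 52.4% over all windows of 250 bases and 50.6% over those of 89 bases. A match is a description of letters and not of a bound site.

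In the GENCODE M21 annotation of GRCm38 (mm10), Tgfb1 lies on the plus strand at chr7:25687002-25705077, Tgfbr1 on the plus strand at chr4:47353222-47414931, Tgfbr2 on the minus strand at chr9:116084293-116175360 and Tgfbr3 on the minus strand at chr5:107106570-107289629. Bambi lies on the plus strand at chr18:3507923-3516404, Smad6 on the minus strand at chr9:63953076-64022059 and Smad7 on the plus strand at chr18:75367529-75395935. The Id genes lie on 3 chromosomes: Id1 on the plus strand at chr2:152736251-152737410, Id2 on the minus strand at chr12:25093799-25097140 and Id3 on the plus strand at chr4:136143497-136145755. Only Tgfbr3 overlaps other annotated genes, none of which is in the count table.

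Levels between genes were compared on the deposited TPM scale, which divides each count by gene length and rescales every library to the same total. The ligand Tgfb1 was the highest of the 10 genes, with a level of 165 ± 44.5 TPM (SD, n = 8 libraries), above 95.7% of tested genes. The co-receptor Tgfbr3 followed with 64.5 ± 11.7 TPM and the type II receptor Tgfbr2 with 33.0 ± 5.25 TPM. The 8 values of Tgfb1, Tgfbr3 and Tgfbr2 did not overlap with each other. Smad7 came next with 28.5 ± 9.56 TPM, and its range overlapped that of Tgfbr2, which was higher in 5 of 8 libraries.

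Id2, with 12.4 ± 6.36 TPM, and the type I receptor Tgfbr1, with 11.9 ± 1.87 TPM, had different orders in the 2 fractions. Id2 was above Tgfbr1 in all 4 Vwf+ libraries, at 11.4 to 25.4 TPM against 8.36 to 11.7 TPM for Tgfbr1, and below it in all 4 Vwf- libraries, at 4.56 to 11.6 TPM against 12.3 TPM or more for Tgfbr1. This order is a description with no test. Smad6 had 6.13 ± 1.94 TPM, Bambi 3.48 ± 0.879 TPM and Id1 3.19 ± 2.40 TPM, and the ranges of neighbours in this order overlapped. Id3 was the lowest with 0.682 ± 0.470 TPM, above 13.8% of tested genes, and rested on 1 to 18 counts per library. The Tgfbr2 to Tgfbr1 ratio of TPM values stayed between 2.53 and 3.11 in all 8 libraries.

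**Figure D1:**
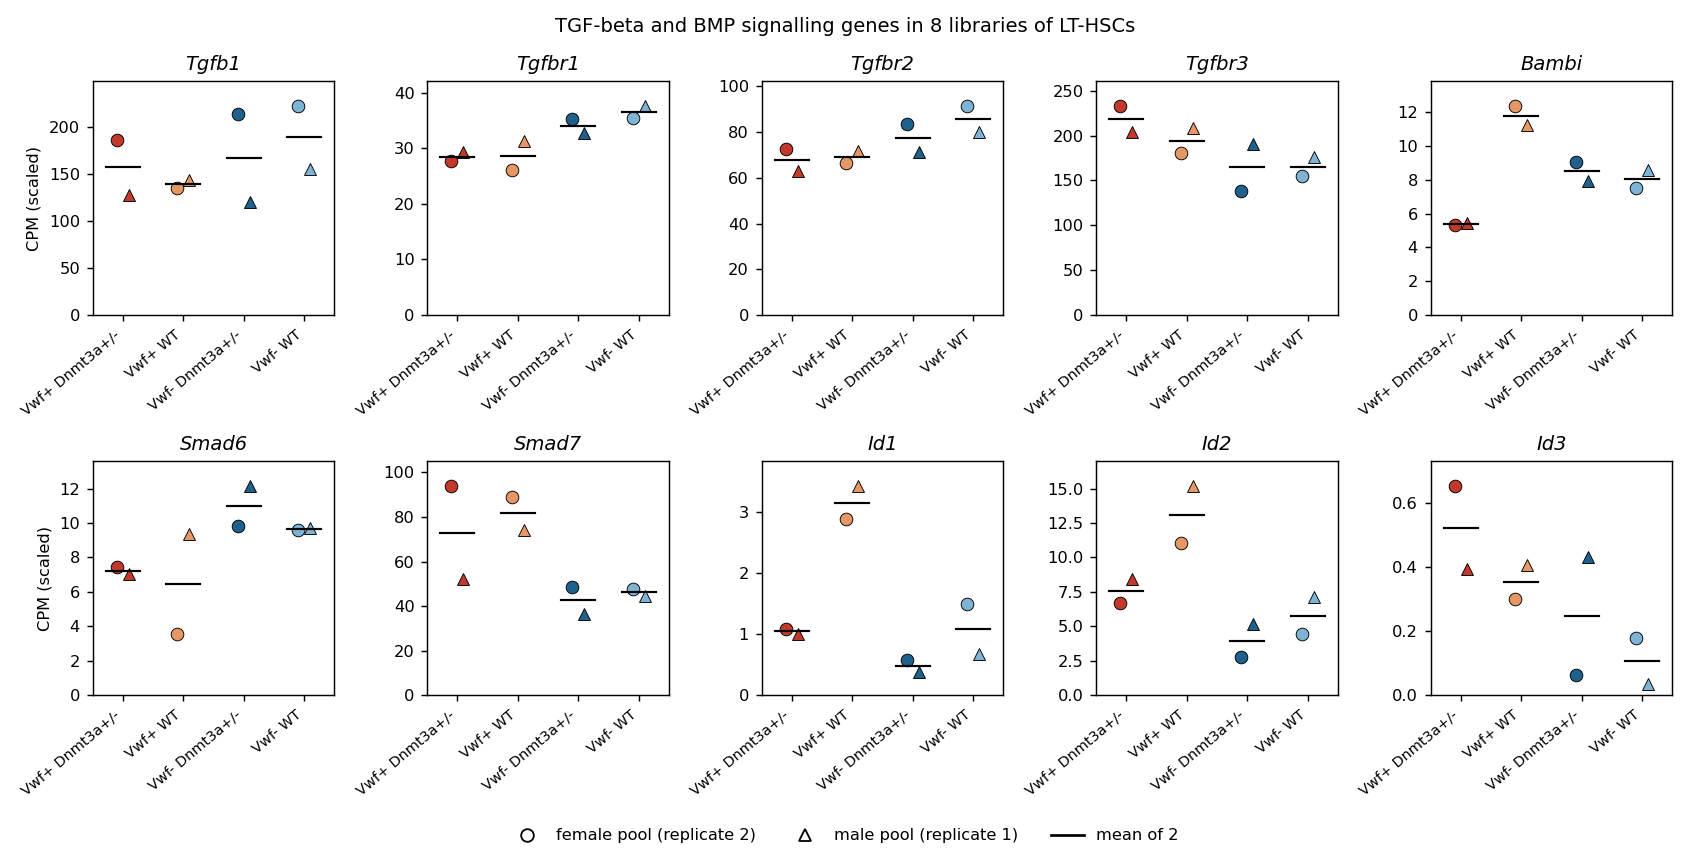
Level of each of the 10 genes in CPM by library, in the 4 groups of sorted LT-HSCs, with circles for female pools, triangles for male pools and a line at the mean of 2. Smad7 is higher in each Vwf+ library than in any Vwf- library, as are 7.71% of tested genes. Bambi is lowest in Vwf+ Dnmt3a+/- cells at 5.32 and 5.44 CPM, and Id3 stays below 1 CPM in each library.

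Between Vwf+ and Vwf- cells, averaged over genotype, the inhibitor Smad7 rose and was the 1 gene of the 10 to pass an adjusted p of 0.05 (edgeR quasi-likelihood test, Benjamini-Hochberg over all tested genes). In the same comparison 5.44% of all tested genes passed, and 3.76% of all tested genes passed with a higher level in Vwf+ cells. Smad7 had 93.8 CPM in the female and 52.1 CPM in the male Vwf+ Dnmt3a+/- pool, and 89.1 and 74.2 CPM in the female and male Vwf+ WT pools. It had 48.4 and 36.7 CPM in the female and male Vwf- Dnmt3a+/- pools, and 47.7 and 44.7 CPM in the female and male Vwf- WT pools. Every Vwf+ library was above every Vwf- library, which held for 7.71% of tested genes in that direction. The means were 77.3 CPM in Vwf+ and 44.4 CPM in Vwf- cells, a log2 difference of 0.80 ± 0.18 (SE) or 1.74-fold, with an edgeR adjusted p of 0.0287. With the replicate number as a block, so that pools of the same sex were compared, the edgeR adjusted p was 4.29e-05, and 13.4% of all genes passed. In bulk RNA of this kind, fewer cells of a type and less RNA per cell cannot be told apart.

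Fits of fraction or genotype that leave out a library have no replicate block. The difference between replicate numbers is thus part of their spread, and leaving out a library with the block was not tested. In these fits without a block, the Smad7 call was lost when single libraries were left out, while the log2 difference stayed between 0.56 and 0.98. The edgeR adjusted p was 0.0573 without the female Vwf+ Dnmt3a+/- library, 0.116 and 0.0564 without the female and male Vwf+ WT libraries, and 0.0723 and 0.0732 without the female and male Vwf- WT libraries. It was below 0.05 without any of the other 3 libraries. Within WT the log2 difference of Smad7 was 0.82 ± 0.25 (edgeR adjusted p = 0.180), and within Dnmt3a+/- cells 0.78 ± 0.25 (edgeR adjusted p = 0.281). None of the 10 passed within either genotype, where 1.97% of all genes did so in WT and 1.06% in Dnmt3a+/-. Of the 10, 3 in WT and 4 in Dnmt3a+/- cells had an unadjusted edgeR p under 0.05, against 12.4% and 9.02% of all tested genes. With the replicate block, Smad7 passed in WT at an adjusted p of 0.00193 and in Dnmt3a+/- cells at 0.00557, beside 8.35% and 5.37% of all genes.

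The second inhibitory SMAD, Smad6, which acts mainly on the BMP branch, had its lower values in Vwf+ cells. Its level was 7.46 and 7.02 CPM in the female and male Vwf+ Dnmt3a+/- pools, and 3.57 and 9.36 CPM in the female and male Vwf+ WT pools. It was 9.80 and 12.1 CPM in the female and male Vwf- Dnmt3a+/- pools, and 9.61 and 9.69 CPM in the female and male Vwf- WT pools. All 4 Vwf+ libraries were below all 4 Vwf- libraries, as for 5.33% of tested genes in that direction. The log2 difference of -0.59 ± 0.28 did not pass, with an edgeR adjusted p of 0.317. The adjusted p was 0.0830 under the replicate block and 0.0119 with a separate block for each genotype and sex. With single libraries left out, Smad6 passed in 1 of 8 fits. The log2 difference was -1.03 without the male Vwf+ WT library (edgeR adjusted p = 0.0390) and -0.32 without the female one (edgeR adjusted p = 0.648).

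As TPM, Smad7 was above Smad6 in all 8 libraries, by 4.97 to 16.7 times in Vwf+ cells and by 2.02 to 3.32 times in Vwf- cells. The medians of this ratio were 6.86 in Vwf+ and 3.19 in Vwf- cells. The female Vwf+ WT library, where Smad6 was lowest, gave the highest ratio. The ratio was chosen after its values were seen and carries no test.

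**Figure D2:**
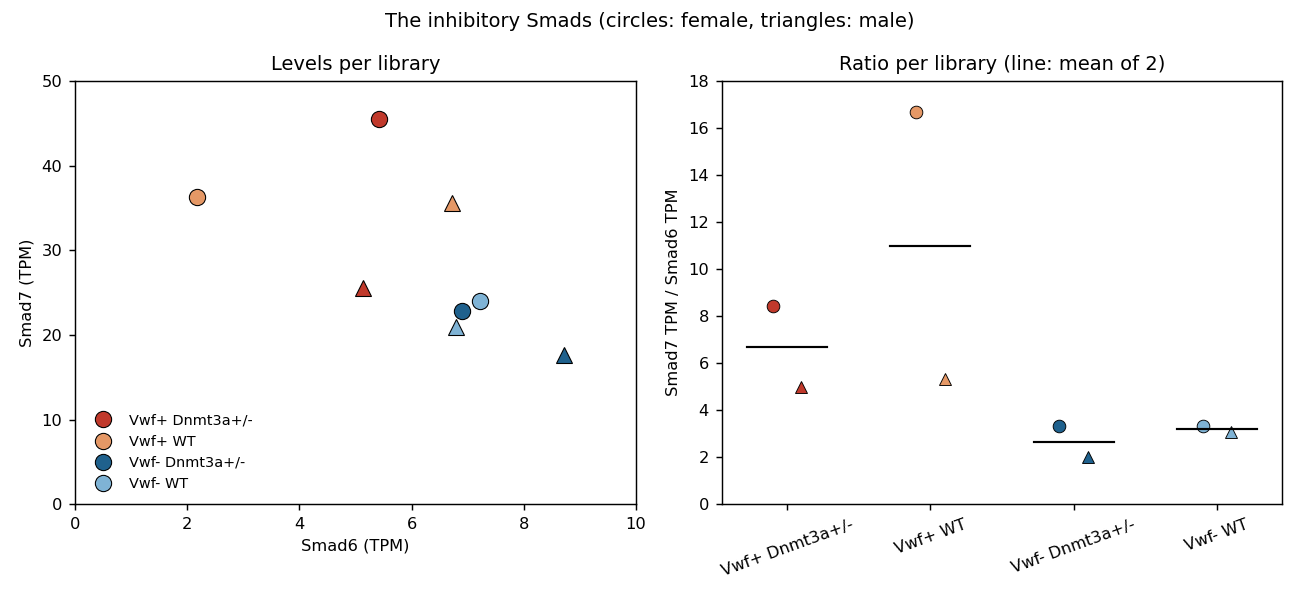
Left, Smad7 against Smad6 in TPM, with 1 point for each of the 8 libraries; right, the ratio of the 2 by group, with a line at the mean of 2 pools. The Vwf+ libraries have ratios of 4.97 to 16.7, all above the 2.02 to 3.32 of the Vwf- libraries.

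Of the Id targets, Id2 had the most counts, 87 to 337 per library. Its level was 6.70 and 8.42 CPM in the female and male Vwf+ Dnmt3a+/- pools, and 11.0 and 15.2 CPM in the female and male Vwf+ WT pools. It was 2.78 and 5.13 CPM in the female and male Vwf- Dnmt3a+/- pools, and 4.41 and 7.11 CPM in the female and male Vwf- WT pools. The groups overlapped only between the female Vwf+ Dnmt3a+/- pool and the male Vwf- WT pool, and Vwf+ was higher in all 4 pairs of the same genotype and sex. The means were 10.3 CPM in Vwf+ and 4.86 CPM in Vwf- cells, a log2 difference of 1.06 ± 0.27 that just missed the threshold (edgeR adjusted p = 0.0515). With the replicate block it passed at an edgeR adjusted p of 0.00076. The same block gave 0.0103 in WT and 0.0589 in Dnmt3a+/- cells. With single libraries left out, Id2 passed in 2 of 8 fits, without the male Vwf- Dnmt3a+/- library (edgeR adjusted p = 0.00858) and without the male Vwf- WT library (edgeR adjusted p = 0.0469). In the other 6 the adjusted p reached 0.214, and over all 8 the log2 difference was 0.86 to 1.31.

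Id1 had 1.09 and 1.01 CPM in the female and male Vwf+ Dnmt3a+/- pools, and 2.89 and 3.42 CPM in the female and male Vwf+ WT pools. It had 0.575 and 0.382 CPM in the female and male Vwf- Dnmt3a+/- pools, and 1.50 and 0.672 CPM in the female and male Vwf- WT pools. Id1 was thus highest in Vwf+ WT cells, and the Vwf+ and Vwf- libraries overlapped when both genotypes were pooled. The log2 difference of 1.33 ± 0.47 did not pass (edgeR adjusted p = 0.158, and 0.0909 with the replicate block). It rests on 16 to 76 counts per library. Id3, at 0.0354 to 0.652 CPM, had a log2 difference of 1.35 ± 0.95 (edgeR adjusted p = 0.562). With single libraries left out, the log2 difference of Id3 was 0.97 to 2.30, and it passed in none of the 8 fits.

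Among the receptors, no member passed between Vwf+ and Vwf- cells averaged over genotype. Tgfbr3 had 233 and 204 CPM in the female and male Vwf+ Dnmt3a+/- pools, and 181 and 208 CPM in the female and male Vwf+ WT pools. It had 139 and 190 CPM in the female and male Vwf- Dnmt3a+/- pools, and 155 and 176 CPM in the female and male Vwf- WT pools. The groups overlapped, and the log2 difference of 0.32 ± 0.13 had an edgeR adjusted p of 0.227, or 0.0417 with the replicate block. With single libraries left out, Tgfbr3 passed in 1 of 8 fits, without the male Vwf- Dnmt3a+/- library (log2 difference 0.44, edgeR adjusted p = 0.0452). The log2 difference was 0.21 without the female Vwf- Dnmt3a+/- library, and the adjusted p reached 0.646. The TPM ratio of Tgfbr3 to Tgfbr2 was 2.15 to 2.56 in Vwf+ and 1.31 to 2.11 in Vwf- cells, a description with no test.

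Tgfbr1 was at 26.1 to 31.2 CPM in Vwf+ cells, below the 32.7 to 37.6 CPM of Vwf- cells in each library, as for 5.33% of tested genes in that direction. Its log2 difference of -0.30 ± 0.12 had an edgeR adjusted p of 0.234, which was 0.0735 with the replicate block and 0.0413 with a block for each genotype and sex. Tgfbr2 was at 63.0 to 72.8 CPM in Vwf+ and 71.4 to 91.4 CPM in Vwf- cells, with a log2 difference of -0.25 ± 0.11 (edgeR adjusted p = 0.260). The ligand Tgfb1 was at 128 to 186 CPM in Vwf+ and 121 to 223 CPM in Vwf- cells, with a log2 difference of -0.27 ± 0.20 (edgeR adjusted p = 0.590). Within WT the Tgfb1 difference was -0.44 ± 0.28 (edgeR adjusted p = 0.612). That adjusted p was 0.185 with the replicate block and 0.0279 with a block for each genotype and sex. Within Dnmt3a+/- cells the Tgfb1 difference was -0.09 ± 0.28 (edgeR adjusted p = 0.992). Bambi averaged 8.59 CPM in Vwf+ and 8.26 CPM in Vwf- cells, with a log2 difference of -0.05 ± 0.18 (edgeR adjusted p = 0.941). This log2 value averages 0.56 ± 0.26 in WT and -0.66 ± 0.26 in Dnmt3a+/- cells, neither of which passed. Over the 10 genes the median log2 difference was 0.14, against -0.01 over all tested genes.

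**Figure D3:**
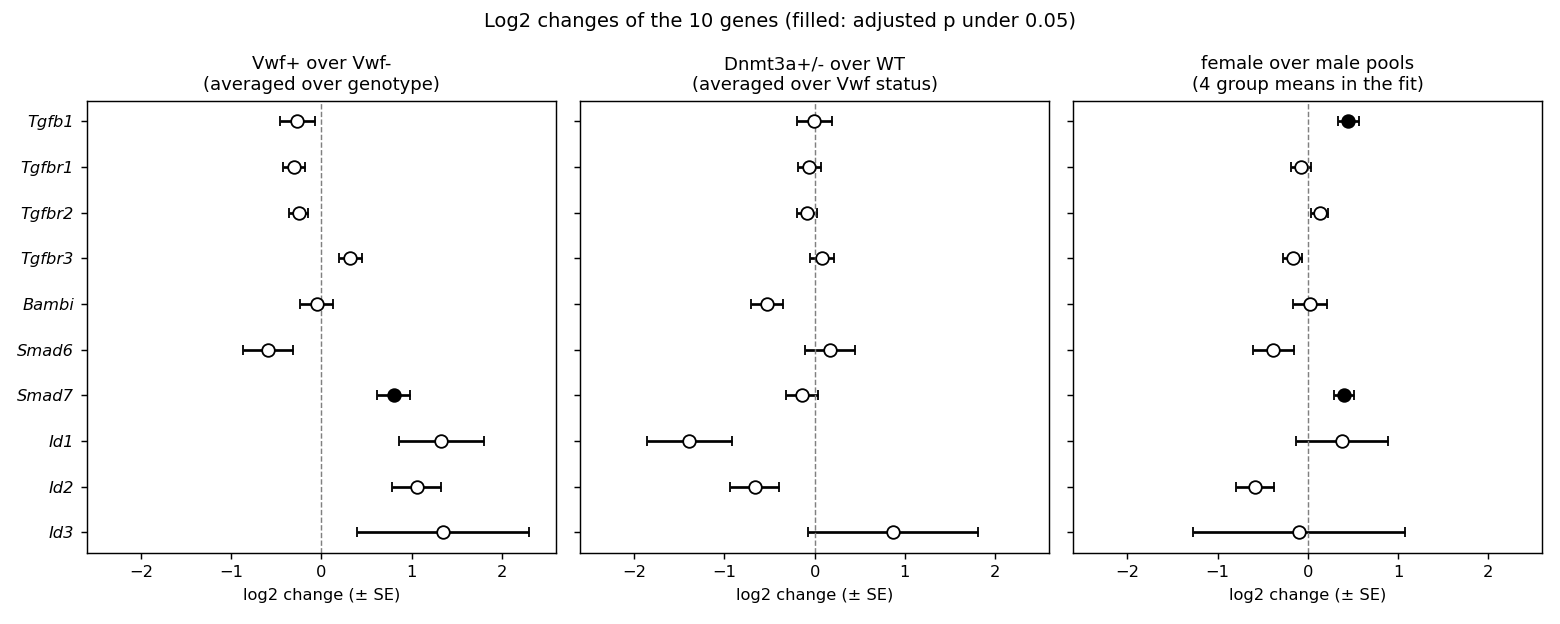
Log2 differences of the 10 genes with standard errors from edgeR, for the comparisons of cell fraction, genotype and sex. Filled points passed an adjusted p of 0.05: Smad7 between Vwf+ and Vwf- cells, and Tgfb1 and Smad7 between female and male pools.

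Summed levels of marker genes of other cell types differed with the Vwf fraction in cells sorted as lineage-negative. How far LT-HSCs express these genes themselves was not tested. The 10 endothelial markers, all detected in every library, summed to 549 to 665 CPM in Vwf+ and 433 to 471 CPM in Vwf- cells. Megakaryocyte markers summed to 576 to 800 CPM in Vwf+ and 321 to 412 CPM in Vwf- cells, and monocyte and macrophage markers to 213 to 230 CPM in Vwf+ and 151 to 201 CPM in Vwf- cells. Stromal markers overlapped, at 40.4 to 78.7 CPM in Vwf+ and 32.6 to 59.7 CPM in Vwf- cells, as did neutrophil markers, at 39.1 to 121 CPM in Vwf+ and 16.9 to 61.0 CPM in Vwf- cells. T and NK cell markers ran the other way, at 2.02 to 3.87 CPM in Vwf+ and 7.66 to 8.68 CPM in Vwf- cells. Most of that sum was Nkg7, at 1.89 to 8.47 CPM over the 8 libraries. Cd3e, Cd3d, Cd3g and Ncr1 each stayed at or below 0.447 CPM. Erythroid markers summed to 8.39 to 17.4 CPM over the 8 libraries with the globin genes Hba-a1 and Hbb-bs at 0 in each, and B-cell markers to 10.7 to 18.2 CPM. Single genes made up much of these sums, with Tie1 at 199 to 323 CPM, Itga2b at 140 to 276 CPM, Itgb3 at 121 to 406 CPM and Lyz2 at 146 to 221 CPM over the 8 libraries. Cdh5, by contrast, stayed at or below 3.55 CPM, Csf1r at or below 9.70 CPM, C1qa at or below 3.10 CPM and Adgre1 at or below 2.85 CPM. Of the other endothelial markers, Plvap stayed at or below 3.33 CPM and Stab2 at or below 3.40 CPM. Kdr had 4.02 to 48.5 CPM, Cldn5 0.480 to 38.8 CPM and Emcn 15.1 to 20.4 CPM. Pecam1 had 45.4 to 64.9 CPM, Tek 54.8 to 107 CPM and Egfl7 66.5 to 91.1 CPM. The part of other cells in the differences of Smad7 and of the ligands below was not tested.

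The wider pathway was described with 8 lists by role, holding 134 genes, of which 108 were tested; some genes stand in more than 1 list. Between Vwf+ and Vwf- cells averaged over genotype, 11 of the 108 rose and 1 fell (edgeR adjusted p under 0.05, against 3.76% and 1.68% of all genes tested). The lists were chosen with earlier results of these data known, so these counts are no test of the pathway. The median log2 difference was 0.12 over the 108 genes and -0.01 over all tested genes. With the replicate block 19 rose and 3 fell, beside 13.4% of all tested genes that passed in either direction. Of the 12 called genes, Inhba, Neo1 and Bmp4 had the largest log2 differences.

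Of 14 tested ligand genes, 2 rose and none fell. Inhba, whose product forms activin A, had 6.08 and 10.6 CPM in the female and male Vwf+ Dnmt3a+/- pools, and 7.79 and 7.56 CPM in the female and male Vwf+ WT pools. It had 0.287 and 1.43 CPM in the female and male Vwf- Dnmt3a+/- pools, and 0.270 and 0.0708 CPM in the female and male Vwf- WT pools. These are 168 to 241 counts in Vwf+ and 2 to 60 counts in Vwf- libraries, so the log2 difference of 4.33 ± 0.54 (edgeR adjusted p = 0.0014) rests on few counts in Vwf- cells.

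Bmp4, a ligand of the BMP branch, had 12.7 and 17.8 CPM in the female and male Vwf+ Dnmt3a+/- pools, and 16.4 and 21.4 CPM in the female and male Vwf+ WT pools. It had 3.07 and 6.18 CPM in the female and male Vwf- Dnmt3a+/- pools, and 2.79 and 5.66 CPM in the female and male Vwf- WT pools. The groups did not overlap, as for 7.71% of tested genes in that direction. The log2 difference was 1.94 ± 0.30 (edgeR adjusted p = 0.00405). Tgfb3 averaged 11.9 CPM in Vwf+ and 6.87 CPM in Vwf- cells and just missed the threshold, with a log2 difference of 0.85 ± 0.22 (edgeR adjusted p = 0.0513, and 0.00313 with the replicate block).

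**Figure D4:**
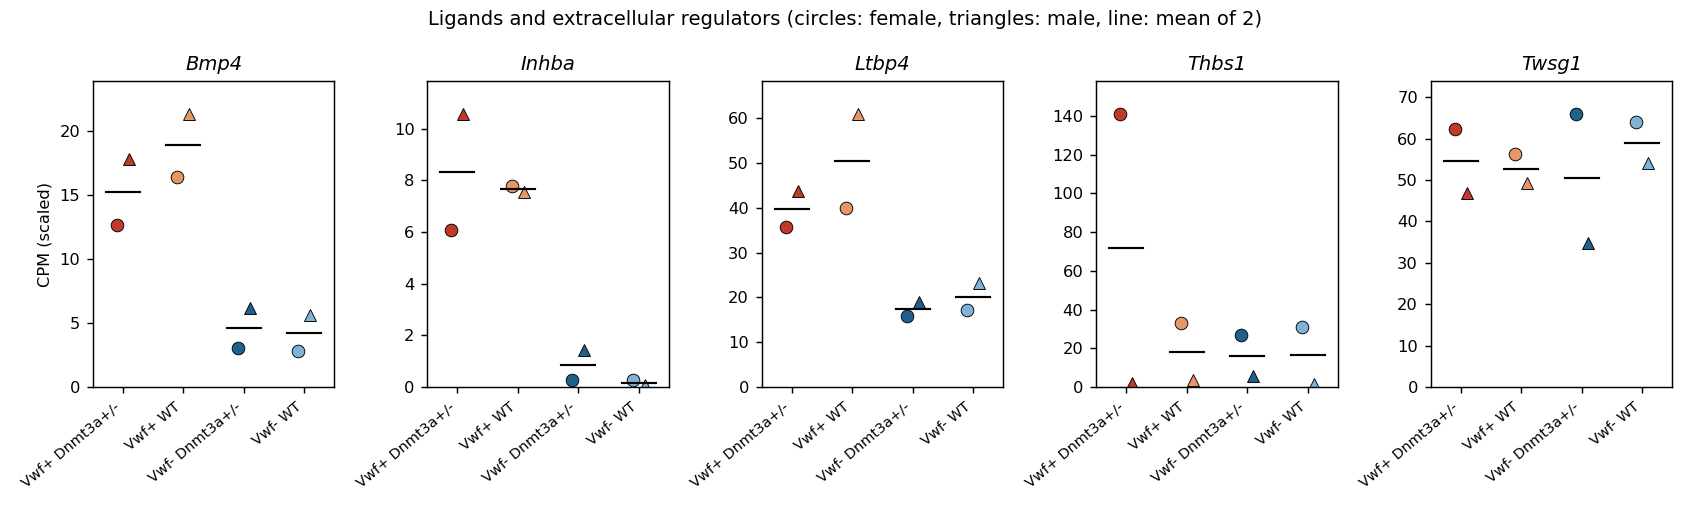
Levels in CPM of Bmp4, Inhba, Ltbp4, Thbs1 and Twsg1 by group, with circles for female pools, triangles for male pools and a line at the mean of 2. Bmp4, Inhba and Ltbp4 are higher in each Vwf+ library than in any Vwf- library, as are 7.71% of tested genes. Thbs1 has 26.7 to 141 CPM in female and 1.56 to 5.85 CPM in male pools.

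Among genes that store or release ligand, 2 of 13 tested rose. Ltbp4, which binds latent TGF-beta in the matrix, averaged 45.1 CPM in Vwf+ and 18.8 CPM in Vwf- cells, with a log2 difference of 1.25 ± 0.18 (edgeR adjusted p = 0.00261). Mmp14, a membrane-bound protease, averaged 47.4 CPM in Vwf+ and 24.5 CPM in Vwf- cells, with a log2 difference of 0.96 ± 0.13 (edgeR adjusted p = 0.0019). Of 9 tested antagonists, Fstl1, a follistatin-like protein, rose by 0.52 ± 0.11 on the log2 scale (edgeR adjusted p = 0.0248), with 68.7 CPM in Vwf+ and 48.1 CPM in Vwf- cells. The BMP antagonist Nog had no count in any library.

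Of 17 tested receptors and co-receptors, 1 rose. Neo1, neogenin, a receptor of netrins and of the BMP co-receptors of the repulsive guidance family, averaged 99.0 CPM in Vwf+ and 12.5 CPM in Vwf- cells, with a log2 difference of 2.97 ± 0.18 (edgeR adjusted p = 2.47e-05). The BMP type II receptor Bmpr2 averaged 134 CPM in Vwf+ and 123 CPM in Vwf- cells (edgeR adjusted p = 0.740), and the type I receptor Bmpr1a 26.0 CPM in Vwf+ and 25.1 CPM in Vwf- cells (edgeR adjusted p = 0.949). The co-receptor Eng averaged 358 CPM in Vwf+ and 286 CPM in Vwf- cells (edgeR adjusted p = 0.149). On the TPM scale, averaged over the 8 libraries, Eng had a level of 189 TPM, Bmpr2 24.4 TPM and Bmpr1a 9.77 TPM.

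Of 8 SMAD genes, 1 passed, the inhibitor Smad7. On the TPM scale Smad3 had a level of 61.5 TPM, Smad4 50.6 TPM, Smad1 44.5 TPM, Smad5 36.2 TPM and Smad2 13.7 TPM. Their log2 differences between Vwf+ and Vwf- cells were 0.16 ± 0.09 for Smad3, -0.08 ± 0.11 for Smad4, 0.28 ± 0.11 for Smad1, -0.01 ± 0.10 for Smad5 and -0.16 ± 0.11 for Smad2, none of which passed. Of 26 other regulators, Zfyve9 and Wwp2 rose and Usp11 fell. Zfyve9, an anchor that presents Smad2 and Smad3 to the receptor, rose by 0.78 ± 0.18 (log2, edgeR adjusted p = 0.0290). Wwp2, a ubiquitin ligase, rose by 0.59 ± 0.11 (log2, edgeR adjusted p = 0.0139). Usp11, a deubiquitinase, had 54.2 CPM in Vwf+ and 76.5 CPM in Vwf- cells, a log2 difference of -0.50 ± 0.10 (edgeR adjusted p = 0.0135).

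Of 24 tested target genes, 3 rose, with Smad7 among them. Junb, an AP-1 transcription factor induced by TGF-beta, averaged 230 CPM in Vwf+ and 103 CPM in Vwf- cells, with a log2 difference of 1.16 ± 0.12 (edgeR adjusted p = 0.000363). Cdkn1c, which encodes the cell-cycle inhibitor p57, rose by 0.94 ± 0.14 (log2, edgeR adjusted p = 0.00338). Of 5 E proteins and other helix-loop-helix factors related to the Id proteins, none passed. Of the 12 genes called, Bmp4, Inhba, Ltbp4, Mmp14, Neo1, Cdkn1c and Junb passed in all 8 fits that left out a single library. Wwp2 passed in 6 of these 8 fits, Fstl1, Usp11 and Smad7 in 3, and Zfyve9 in 2. The number called was 7 to 15 across the 8 such fits and lowest without the female Vwf+ WT library.

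Within WT, 7 of the 108 genes rose and none fell, namely Bmp4, Inhba, Ltbp4, Mmp14, Neo1, Cdkn1c and Junb. There the log2 difference was 3.12 ± 0.26 for Neo1, 1.43 ± 0.17 for Junb and 2.16 ± 0.42 for Bmp4 (edgeR adjusted p = 0.00042, 0.0025 and 0.0310). Of the 7, Neo1 and Junb passed without any single library, and 3 genes were called without the female or the male Vwf+ WT library or without the female Vwf- WT library. Within Dnmt3a+/- cells 2 rose, Neo1 by 2.82 ± 0.26 (log2, edgeR adjusted p = 0.00100) and Junb by 0.89 ± 0.16 (log2, edgeR adjusted p = 0.0364). Of all tested genes 1.97% passed within WT and 1.06% within Dnmt3a+/-. With the replicate block, 14 list genes rose and 1 fell within WT (8.35% of all tested genes passed), and 10 rose and 2 fell within Dnmt3a+/- cells (5.37%). A lower number of calls does not show that the difference itself was smaller, and no gene passed the interaction of genotype with Vwf status. The Junb call within Dnmt3a+/- cells held only without the male Vwf- Dnmt3a+/- library among the 8 fits that leave out a library, with adjusted p from 0.00854 to 0.151.

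**Figure D5:**
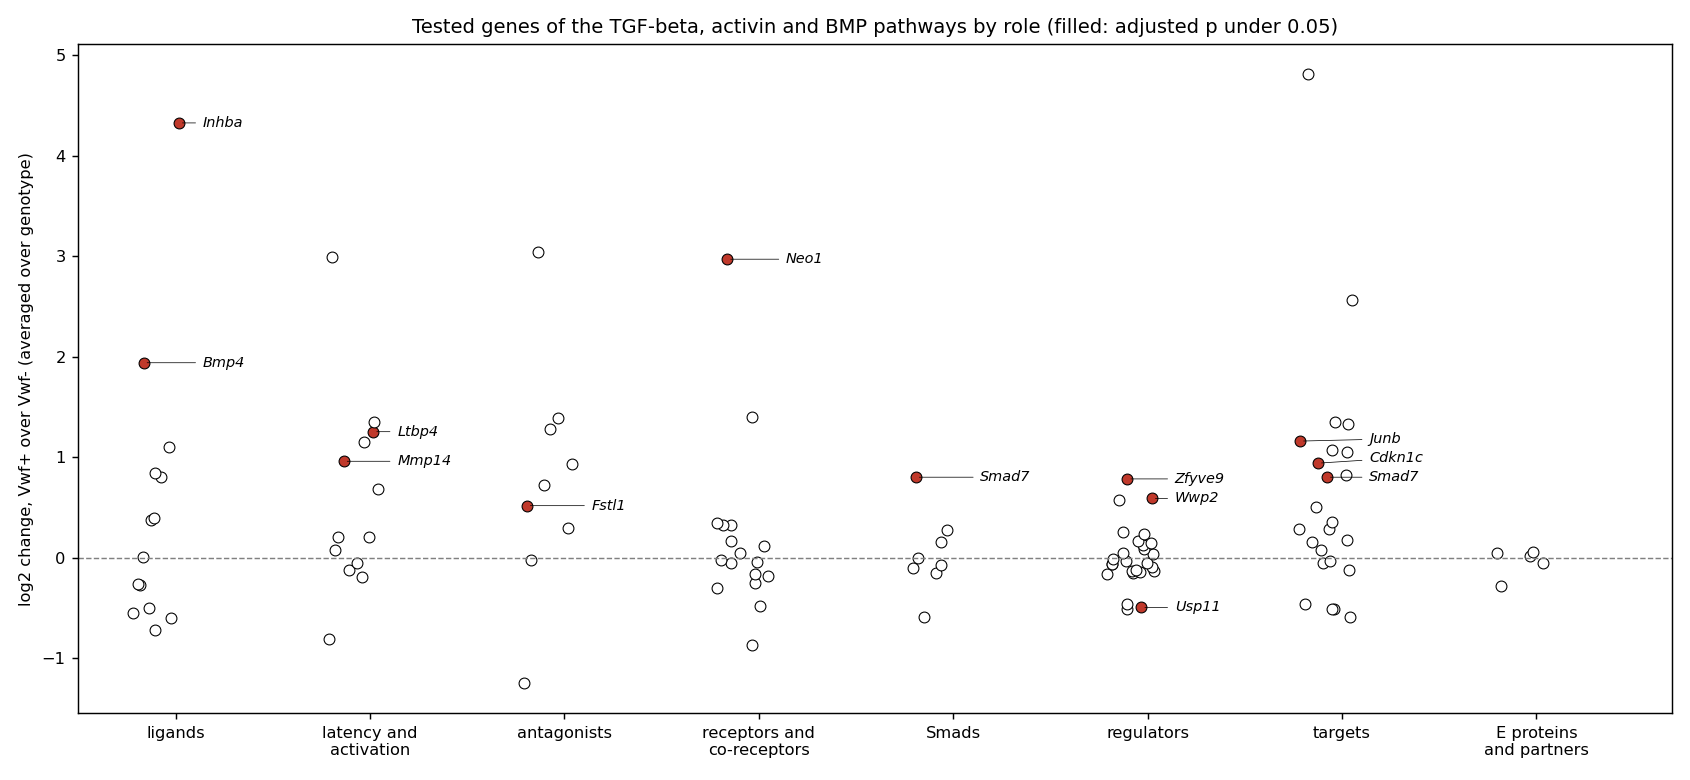
Log2 difference between Vwf+ and Vwf- cells for each tested gene of the 8 lists, grouped by role. Filled points passed an edgeR adjusted p of 0.05, with 11 higher and 1 lower, and of these Inhba, Neo1 and Bmp4 lie farthest from 0.

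Hk2 and Tgm2 were among the genes whose pattern over the 8 libraries was most like that of Smad7. The likeness is the root-mean-square difference of gene-centred log2 CPM over the 8 libraries, which was 0.117 for Hk2 and 0.144 for Tgm2. Its median was 0.500 over the 10175 genes with a mean log2 CPM above 3. Hk2 encodes a hexokinase and Tgm2 a transglutaminase. Their own log2 differences between Vwf+ and Vwf- cells were 0.71 ± 0.16 for Hk2 and 0.99 ± 0.15 for Tgm2.

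Between Dnmt3a+/- and WT cells, none of the 10 genes passed, and 0% of all tested genes did, averaged over Vwf status or within either fraction (edgeR). Of all tested genes, 516 (3.24%) had an unadjusted p under 0.05 averaged over Vwf status, 363 (2.28%) in Vwf+ cells and 211 (1.33%) in Vwf- cells. With the replicate block 30, 6 and 2 genes passed in these 3 comparisons, and with DESeq2 15, 3 and 2, none of them among the 10. Of the 10, Bambi, Id1 and Id2 had unadjusted p-values under 0.05 averaged over Vwf status, each with a lower mean in Dnmt3a+/- cells. None of the 108 tested genes of the lists passed.

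Bambi had 5.32 and 5.44 CPM in the female and male Vwf+ Dnmt3a+/- pools, against 12.4 and 11.2 CPM in the female and male Vwf+ WT pools. In Vwf- cells it had 9.04 and 7.95 CPM in the female and male Dnmt3a+/- pools, against 7.51 and 8.56 CPM in the female and male WT pools. Both Dnmt3a+/- libraries were below both WT libraries in Vwf+ cells, as for 13.9% of all tested genes, and the genotypes overlapped in Vwf- cells. In Vwf+ cells the log2 difference was -1.13 ± 0.26, with an unadjusted p of 0.00138 but an edgeR adjusted p of 1. In Vwf- cells it was 0.08 ± 0.25. The interaction of genotype with Vwf status was -1.21 ± 0.36 on the log2 scale, with an unadjusted p of 0.00733 and an edgeR adjusted p of 1.00. In the same design Bambi differed between Vwf+ and Vwf- cells by 0.56 ± 0.26 in WT and by -0.66 ± 0.26 in Dnmt3a+/- cells on the log2 scale, and neither passed (edgeR adjusted p = 0.416 in WT and 0.439 in Dnmt3a+/- cells).

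Id1 averaged 0.763 CPM in Dnmt3a+/- and 2.12 CPM in WT cells, lower in the Dnmt3a+/- library of all 4 pairs of the same fraction and sex. Its log2 difference was -1.39 ± 0.47, with an unadjusted p of 0.0139 and an edgeR adjusted p of 0.998. Id2 averaged 5.76 CPM in Dnmt3a+/- and 9.43 CPM in WT cells, again lower in all 4 pairs. Its log2 difference was -0.66 ± 0.27, with an unadjusted p of 0.0328 and an edgeR adjusted p of 0.998. Neither difference passed. The comparisons of fraction and of genotype are fitted on the same 8 libraries.

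Between female and male pools, Tgfb1 and Smad7 rose, so that 2 of the 10 genes passed, against 10.5% of all tested genes. Sex and replicate number coincide, so that sex and any difference in handling between replicates cannot be told apart, and Malat1 as given above moved with it. Tgfb1 had 186 CPM in the female and 128 CPM in the male Vwf+ Dnmt3a+/- pool, and 214 CPM in the female and 121 CPM in the male Vwf- Dnmt3a+/- pool. It had 135 CPM in the female and 143 CPM in the male Vwf+ WT pool, and 223 CPM in the female and 156 CPM in the male Vwf- WT pool. Females were higher in 3 of 4 pairs, and the exception was Vwf+ WT. The means were 190 CPM in females and 137 CPM in males, a log2 difference of 0.45 ± 0.12 or 1.37-fold (edgeR adjusted p = 0.0192).

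The Tgfb1 call was lost without the female Vwf+ Dnmt3a+/- library (edgeR adjusted p = 0.0565) and without the female or male Vwf- Dnmt3a+/- library (edgeR adjusted p = 0.140 and 0.138). Smad7 averaged 69.7 CPM in females and 51.9 CPM in males and was higher in females in 4 of 4 pairs, a log2 difference of 0.40 ± 0.11 or 1.32-fold (edgeR adjusted p = 0.0277). The Smad7 call was lost without the female or male Vwf+ Dnmt3a+/- library, each with an edgeR adjusted p of 0.300 and a log2 difference of 0.25. It was also lost without the female or male Vwf- Dnmt3a+/- library, with edgeR adjusted p-values of 0.0673 and 0.0626. Id2 was lower in females in all 4 pairs, with a log2 difference of -0.59 ± 0.21 that did not pass (edgeR adjusted p = 0.0753). None of the other 7 genes passed.

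Of the 108 tested genes of the lists, 6 rose and 4 fell in female against male pools, where 5.62% of all genes rose and 4.92% fell. Thbs1, thrombospondin 1, an activator of latent TGF-beta, had the largest difference of the 10. It had 141 CPM in the female and 2.28 CPM in the male Vwf+ Dnmt3a+/- pool, and 33.0 CPM in the female and 3.51 CPM in the male Vwf+ WT pool. It had 26.7 CPM in the female and 5.85 CPM in the male Vwf- Dnmt3a+/- pool, and 31.2 CPM in the female and 1.56 CPM in the male Vwf- WT pool. The log2 difference between female and male pools was 3.80 ± 0.36, or 13.9-fold (edgeR adjusted p = 2.49e-06). The call held whichever library was left out, with a log2 difference from 3.12 to 4.51. The number of list genes called was 4 without the female or the male Vwf- Dnmt3a+/- library, and 15 and 16 without the female and male Vwf+ WT libraries.

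The BMP antagonist and modulator Twsg1, the activin receptor Acvr1b and the E protein Tcf3 also rose in females, by 0.44 ± 0.11, 0.34 ± 0.11 and 0.31 ± 0.10 on the log2 scale (edgeR adjusted p = 0.0181, 0.0458 and 0.0494). The 4 genes that fell in females were Bmp4, with a log2 difference of -0.71 ± 0.18 (edgeR adjusted p = 0.0175), the latent TGF-beta binding proteins Ltbp3 and Ltbp4, with -0.46 ± 0.11 and -0.40 ± 0.11 (edgeR adjusted p = 0.0113 and 0.0242), and Bmp1, a protease, with -0.62 ± 0.13 (edgeR adjusted p = 0.00394). Of these 7, Bmp1 passed without any single library, with adjusted p up to 0.0355. Of the 8 fits that left out a library, Twsg1 and Ltbp3 passed in 6, with adjusted p up to 0.196 and 0.132. Acvr1b, Bmp4 and Ltbp4 passed in 4, with adjusted p up to 0.312, 0.0756 and 0.107, and Tcf3 passed in 2, with adjusted p up to 0.321.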

How the data were processed

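The members and gene lists were chosen with earlier results of these data known. Raw counts per gene were deposited by the authors as whole numbers, and the deposited TPM values equal those counts divided by 1 length per gene and rescaled (largest relative deviation 8.88e-16 over 10555 genes). Per the submitters' processing notes, featureCounts, STAR, DESeq2 and Trim Galore were used with mm10; roles, versions, annotation, strand setting and treatment of multi-mapping reads are not given in the sources used here, so reads of overlapping genes or paralogs may be split. Per the labels' protocols, libraries came from a low-input total RNA kit.

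Counts were tested in R 4.3.3 with edgeR 4.0.16 (filterByExpr minimum count 10, TMM factors 0.958 to 1.06, quasi-likelihood F-test, 4 group means on 8 libraries with 4 residual degrees of freedom), adjusted by the Benjamini-Hochberg method over 15917 genes at a threshold of 0.05. SE is the absolute log2 difference over the square root of F. The sex comparison added replicate number to the group means. The scripts were tested on simulated counts. Same-numbered libraries deviated together in every pair of groups (correlations 0.134 to 0.296 over 15917 genes), and the labels give them the same sex, so the numbers pair the samples; the block has 3 residual degrees of freedom, and blocks by genotype and sex have 2. Alternatives were relative log expression factors, DESeq2 1.42.0, no filter, limma 3.58.1 on log2(TPM + 0.1) and log2(TPM + 1), both blocks, and leaving out each library. Apart from the sex comparison, the fits that leave out a library had no block. Named were all members, list genes passing 0.05 (at most 20 per comparison), and the 3 genes most like each called member, of which 1 is not reported here; other names were chosen after their values were seen.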

Additional observations from a re-analysis of the deposited data

How the results depend on the processing

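The number of the 10 genes called between Vwf+ and Vwf- cells averaged over genotype, 1 in the edgeR fit, was 2 with DESeq2 and with no filter (Smad7 and Id2), 0 with limma on either TPM scale, 3 with the replicate block (Smad7, Id2 and Tgfbr3), 5 with 4 blocks by genotype and sex (also Smad6 and Tgfbr1), and 0 to 3 with single libraries left out. Within WT, where none was called, it was 1 with DESeq2, 2 with no filter, 2 with the replicate block, 3 with 4 blocks, and 0 to 1 with single libraries left out. Within Dnmt3a+/- cells, where none was called, it was 1 with no filter, 1 with the replicate block, 3 with 4 blocks, and 0 to 1 with single libraries left out. Between female and male pools, 2 were called, 0 with limma on either TPM scale and 0 to 2 with single libraries left out. The block changed no call of a member in the genotype comparisons or the interaction, where each setting gave 0. No called difference of a named gene changed sign. Of all genes, 866 were called between Vwf+ and Vwf- cells, 1354 with DESeq2, 1649 with no filter, 502 and 563 with limma, and 2132 with the replicate block; between female and male pools 1677 were called, and 360 and 287 with limma. Of the lists, 12 genes were called between the fractions, 19 with DESeq2, 21 with no filter and 22 with the replicate block, and 10 between sexes, 1 with limma. The cause was not tested. On the log2(TPM + 0.1) scale the median over all genes was -0.13 between fractions in WT, 0.14 between genotypes in Vwf+ cells and 0.18 in the interaction, against 0.0039, 0.0070 and -0.0043 in the edgeR fit. Id1 rested on 16 to 76 counts per library and Id3 on 1 to 18, and which differences these depths could show was not tested.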

Other observations

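Of the E proteins and other helix-loop-helix factors related to the Id proteins, Lyl1, Tcf3 and Tal1 had the highest levels, with 189 TPM, 116 TPM and 97.1 TPM averaged over the 8 libraries. Their log2 differences between Vwf+ and Vwf- cells were 0.02 ± 0.10 for Lyl1, -0.29 ± 0.15 for Tcf3 and 0.04 ± 0.10 for Tal1, and none passed (edgeR adjusted p = 0.960, 0.371 and 0.903). Id4, the remaining Id gene, averaged 0.495 CPM in Vwf+ and 0.0354 CPM in Vwf- cells, at which level no fold change is given (edgeR adjusted p = 0.112).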
